A study of Mus musculus with 2 samples.

Results

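FOS, JUN, ATF3 and BATF proteins make up AP-1, the transcription factor that FOS itself belongs to, and the genes that encode them were examined as possible places of FOS binding in mouse granulosa cells. The set held 10 genes, namely Fos, Fosb, Fosl1, Fosl2, Jun, Junb, Jund, Atf3, Batf and Batf3, of 21887 protein-coding genes in all. A FOS peak was counted for a gene if the authors' list named that gene as nearest to the peak or as the gene holding it. By this rule 4 of the 10 genes had 8 of the 2374 peaks of the list. For the other 6 genes the nearest peak on the chromosome is described instead. Granulosa cells, which surround and feed the oocyte, were taken by puncturing ovarian follicles of wild-type females 25 days old. The females had received PMSG to make follicles grow, then hCG to mimic the surge of luteinizing hormone, and the cells were taken 3 h after hCG. Of the 2 libraries in the series, 1 was immunoprecipitated with an antibody against FOS and gave the peak list. The other, from cells given the same treatment, has no antibody in its label and was not analysed here. How many mice were pooled is not given in the sources used here. There was 1 FOS library and no replicate, so the values have no replicate error and no test was made. How far the antibody tells FOS from the related proteins named here was not tested. The list holds no read counts, so its depth is unknown, and no expression values, so the cell type was not checked against markers.

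AP-1 proteins bind DNA as dimers through a basic region and a leucine zipper (bZIP). FOS proteins cannot pair with themselves and need a JUN protein, whereas JUN proteins can also pair with each other. The gonadotropin surge before ovulation is known to induce several AP-1 genes in granulosa cells, and some AP-1 genes are known to be regulated by AP-1 itself.

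FOS peaks were found at or near the genes of some of its relatives and partners and not at Fos. Atf3 and Fosl2 were the genes overlapped by a peak. Fosb had a peak centred 17.3 kb upstream, and Jun a peak of low score (23) centred 53.4 kb upstream. Fos, Fosl1, Junb, Jund, Batf and Batf3 had no peak assigned to them. The share of genes with an assigned peak, 4 of 10, stood beside 8.69% of all protein-coding genes (1902 of 21887) under the same rule. The genes had been chosen with earlier results of these data known, so this contrast is a description and no test of enrichment. Ordered by the gap between the gene and its nearest peak, Atf3 and Fosl2 were overlapped, and the gap was 6.77 kb at Junb, 17.1 kb at Fosb, 36.7 kb at Batf, 53.3 kb at Jun, 73.7 kb at Batf3, 153 kb at Jund, 186 kb at Fos and 290.0 kb at Fosl1. The median gap was 45.0 kb over the 10 genes and 279 kb over the 21631 protein-coding genes on chromosomes with a peak. Fosl1 lay close to the median over all genes, and the other 9 lay nearer to a peak than that median. The 10 genes are not independent places in the genome, since Atf3 and Batf3 lie 61.4 kb apart on chromosome 1 and Fos and Batf lie 209 kb apart on chromosome 12.

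**Figure D1:**
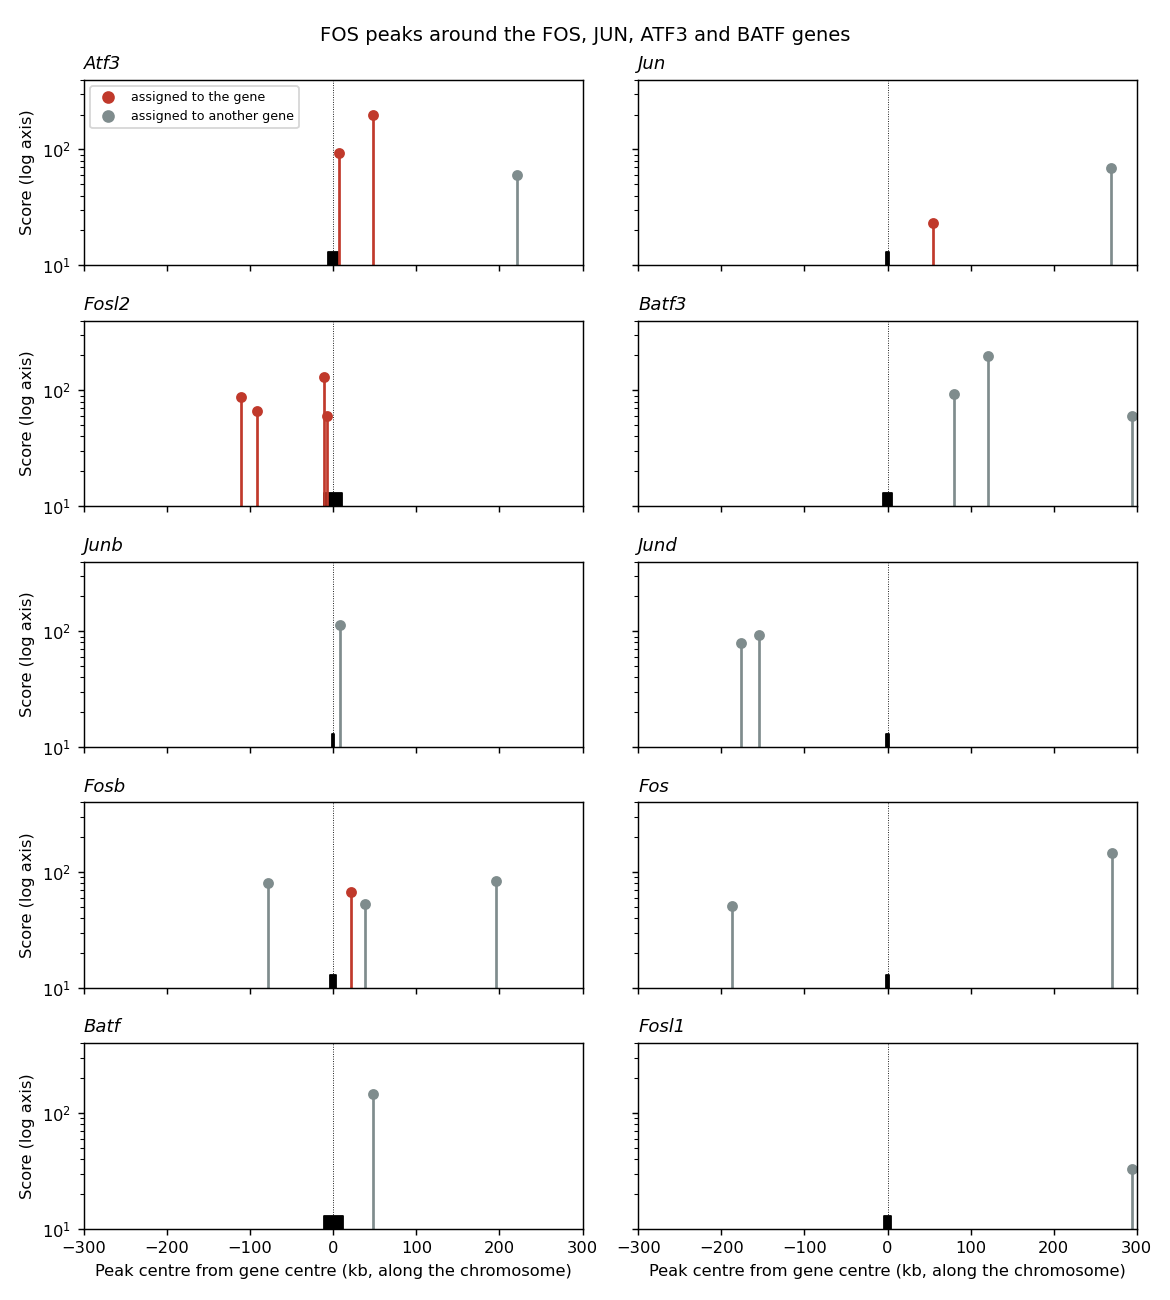
FOS peaks within 300 kb of each of the 10 genes, with the peak centre's distance from the gene centre in kb along the chromosome on the horizontal axis and the authors' peak score on a logarithmic vertical axis. Red peaks were assigned to the gene, grey peaks to another gene, and the black bar is the gene. Fosl2 has 4 red peaks and Atf3 has 2, while the single peak beside Junb is grey.

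The score that the authors gave each peak was used here to order the peaks, and it ran from 13 to 2234 with a median of 67. The 8 peaks scored 199 and 93 at Atf3, 131, 88, 66 and 60 at Fosl2, 67 at Fosb and 23 at Jun. Their median of 77.5 lay above the 67 of the whole list, and 5 of the 8 were at or above that median. The best peak of Atf3 ranked 86 and the best of Fosl2 ranked 336 of 2374, whereas the Jun peak ranked 2304, near the foot of the list. Of the 8 peaks, 3 were intergenic, 3 intronic, 1 in an exon and 1 in the authors' promoter class. In the whole list 35.4% were intergenic, 44.7% intronic and 15.2% of the promoter class. The centre of the peak lay upstream of the gene's start in 6 of the 8. The share of upstream peaks in the whole list was not computed, so this count has no background.

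**Figure D2:**
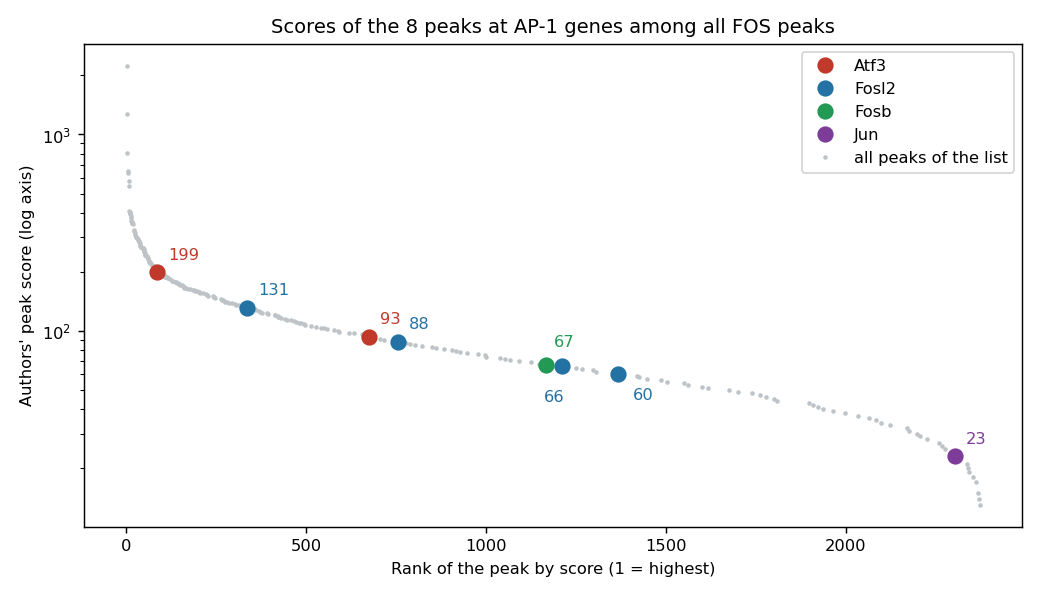
Authors' peak score on a logarithmic vertical axis against the rank of each peak in the list of 2374. Large dots are the 8 peaks of Atf3, Fosl2, Fosb and Jun with their scores, and grey dots are all peaks. The peaks run from rank 86 (Atf3, score 199) to rank 2304 (Jun, score 23).

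Atf3 encodes a stress-induced bZIP protein that can pair with JUN proteins and that represses transcription as a homodimer. The gene lies at chr1:191170296-191183333 (mm10) on the minus strand. Its start lay inside the peak chr1:191182670-191183617, which scored 93 and reached from 284 bases before the start to 664 bases into the gene. The peak's centre was 190 bp past the start, so that the authors' annotation placed it in exon 1 of 4 and not in the promoter class. At 948 bases this was the peak with width rank 4 of the whole list, in which the median width was 342 bases and the widest peak had 1114. Its score was of rank 674 in a list of 2374. The other Atf3 peak, chr1:191224286-191224676, was intergenic with its centre 41.1 kb upstream and had the higher score, 199. It was 391 bases wide.

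Fosl2, the gene of FRA2, a FOS relative without the strong activation domain of FOS, had more peaks than any other gene of the set. Its 4 peaks spanned 104 kb of chromosome 5, and it was 1 of 17 genes among the 1964 nearest genes of the list that had at least 4 peaks. The highest score, 131, belonged to the promoter peak chr5:32135526-32136111. That peak was 586 bases wide, wider than 96.8% of the list, and ended 361 bp before the gene, which lies at chr5:32136472-32157840 on the plus strand. A further peak, chr5:32139587-32139854, stood 3.48 kb beyond it in intron 1 of 3 and scored 60. At 268 bases it was as narrow as the narrowest peaks of the list. The remaining pair lay in intron 10 of 11 of the upstream neighbour Bre, a gene named for its expression in brain and reproductive organs. Their centres were 80.6 kb and 100.5 kb upstream of the Fosl2 start, they stood 19.4 kb apart, and they scored 66 and 88.

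The promoter stretches of Atf3 and Fosl2 are shown because a peak covers the first and stops just short of the second. Each is the 250 bases before the start in RefSeq (GRCm38.p6, the assembly that mm10 names), read 5′ to 3′ on the gene's strand, from chr1:191183334-191183583 for Atf3 and chr5:32136222-32136471 for Fosl2. Capitals mark letters that match TGACGTCA with at most 1 mismatch.
Atf3: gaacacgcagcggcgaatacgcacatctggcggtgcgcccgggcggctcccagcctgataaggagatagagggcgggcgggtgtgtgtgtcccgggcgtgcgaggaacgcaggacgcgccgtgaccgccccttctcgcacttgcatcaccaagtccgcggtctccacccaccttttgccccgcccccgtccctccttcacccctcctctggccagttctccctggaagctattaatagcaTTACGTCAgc
Fosl2: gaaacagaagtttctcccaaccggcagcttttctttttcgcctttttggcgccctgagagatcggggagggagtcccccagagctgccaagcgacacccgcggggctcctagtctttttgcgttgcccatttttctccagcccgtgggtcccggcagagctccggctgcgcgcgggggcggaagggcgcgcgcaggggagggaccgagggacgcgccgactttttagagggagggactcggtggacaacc
The Atf3 stretch lay wholly inside its peak and held TTACGTCA, which began 10 bases before the start. The Fosl2 stretch began 111 bp past the end of its promoter peak and held no match. The sequence under the Fosl2 peak itself was not used here.

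Fosb encodes a close relative of FOS and, by alternative splicing, the shorter and stable protein ΔFOSB. Its peak, chr7:19327239-19327543, was intergenic and 305 bases wide, scored 67, the median of the list, and was centred 17.3 kb upstream of the start. Fosb lies at chr7:19302696-19310118 on the minus strand among many genes, with 12 other protein-coding genes within 100 kb. In that stretch 2 further peaks lay within 100 kb of Fosb and were assigned to Ercc1 and Opa3. With 3 peaks in all within 100 kb, Fosb equalled Fosl2, and the other 8 genes had 0 to 2. The remaining Fosl2 peak lay 100.2 kb from that gene, just past this limit.

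Jun encodes the main partner of FOS. Its peak, chr4:95105488-95105823, was centred 53.4 kb upstream of the gene, which lies at chr4:95049036-95052222 on the minus strand. With a score of 23 it stood above 2.74% of the list, and the lowest score listed was 13. On the other side of Jun the next peak was far off, and the peak-free stretch around the gene was 1880 kb long.

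Junb and Jund encode the other JUN proteins, which activate many AP-1 sites less strongly than JUN. Junb had no assigned peak, yet a peak stood close to it. The peak chr8:84985518-84985925 scored 114 (rank 446), and its centre lay 6.97 kb upstream of the Junb start. It was 4.87 kb upstream of the start of Hook2, a gene of an adaptor between cargo and microtubules, and the authors' annotation assigned it to Hook2. Junb lies at chr8:84976909-84978748 on the minus strand with 17 other protein-coding genes within 100 kb, the highest number in the set. The peak-free stretch that held Junb was 783 kb long, with this peak at its upstream end. Jund, at chr8:70697739-70700616, had its nearest peak 153 kb upstream, in intron 1 of 11 of Ell, the gene of an elongation factor of RNA polymerase II. That peak scored 92. The peak-free stretch around Jund was 2763 kb long and held 80 protein-coding genes, and 10.5% of the 2354 gaps between neighbouring peaks of the list were as long. The median of those gaps was 380 kb. This share counts gaps and not genes, and a long gap can hold many genes.

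Fos, the gene of the precipitated protein, lies at chr12:85473890-85477274 on the plus strand and had no peak within 100 kb. The nearest was a peak of score 51, chr12:85287758-85288247, of the promoter class at Zc2hc1c, 186 kb upstream of Fos. The peak-free stretch around Fos was 458 kb long and held 5 protein-coding genes, namely Nek9, Tmed10, Fos, Jdp2 and Batf. Jdp2 encodes a bZIP repressor that pairs with JUN, and Batf a bZIP protein of lymphocytes that pairs with JUN and lacks an activation domain, so 3 AP-1 genes shared this stretch. Gaps at least as long made up 45.6% of all gaps between neighbouring peaks, again counted over gaps and not genes. The stretch ended 36.7 kb past Batf at the peak chr12:85745781-85746167, which was of the promoter class at Mfsd7c, a transporter gene, and scored 147 (rank 246). Batf had no nearer peak.

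Batf3 and Fosl1 were the remaining genes without a peak. Batf3, a gene known for its part in dendritic cell development, lies at chr1:191098414-191108943, 61.4 kb from Atf3. Its nearest peak was the Atf3 start peak described above, 73.7 kb past the end of Batf3. Fosl1, the gene of FRA1, lies at chr19:5447698-5455938. Its nearest peak, chr19:5745978-5746248, was in exon 4 of 28 of Ltbp3, which encodes a binding protein of latent TGF-beta, and scored 33. The stretch free of peaks around Fosl1 was 753 kb long and held 42 protein-coding genes.

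The promoter stretches of Fos and Jun are shown because their regulation through AP-1 or related sites is well known and no FOS peak was listed there. They are the 250 bases before the start in RefSeq (GRCm38.p6), from chr12:85473640-85473889 on the plus strand for Fos and chr4:95052223-95052472 on the minus strand for Jun, 5′ to 3′. Capitals again mark a match to TGACGTCA with at most 1 mismatch. They follow this rule alone, so known sites with other letters or further upstream are not marked.
Fos: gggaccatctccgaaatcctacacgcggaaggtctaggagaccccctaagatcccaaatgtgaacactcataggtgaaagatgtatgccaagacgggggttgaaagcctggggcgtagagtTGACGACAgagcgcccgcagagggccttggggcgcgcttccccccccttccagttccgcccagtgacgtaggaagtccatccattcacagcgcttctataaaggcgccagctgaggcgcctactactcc
Jun: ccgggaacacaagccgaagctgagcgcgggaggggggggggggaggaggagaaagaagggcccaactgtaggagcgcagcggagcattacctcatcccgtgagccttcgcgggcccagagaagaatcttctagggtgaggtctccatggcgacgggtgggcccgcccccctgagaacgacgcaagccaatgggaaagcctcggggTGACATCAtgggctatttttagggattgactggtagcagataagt
The Jun stretch held TGACATCA, which began 45 bases before the start. In human JUN these letters are a known site through which JUN proteins act on their own gene. The nearest peak was 53.0 kb from this stretch of Jun and 185 kb from that of Fos. The Fos stretch held TGACGACA, which began 129 bases before the start. Whether these letters are a site that acts on Fos was not examined.

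The letters of known AP-1 and related sites were then searched in the promoters of the set. RefSeq promoter windows, which run from 250 bases before to 50 after the start, were given for 9 of the 10 genes, all but Fosl1. The letters TGANTCA, where N is any base, are wider than the classical AP-1 site. Searched on both strands, they were in none of the 9 windows and in 7.81% of all 32851 windows. The cAMP response letters TGACGTCA were likewise in none, against 1.79% of all windows. TGACGCA was found at Fosb, where it began 60 bases before the start, and in 2.12% of all windows. The form of TGACGTCA with at most 1 mismatch, added after the sequences were seen, was in 3 of the 9, namely Fos, Jun and Atf3, and in 12.5% of all windows. The mismatched form includes TGACGTCA itself and contains neither TGANTCA nor TGACGCA. The 250 bases before the start had a median G and C content of 64.4% in the members and 52.4% over all windows. The counts in 9 windows are small, were not adjusted for this content and were not tested. A match is a description of letters and shows no binding.

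**Figure D3:**
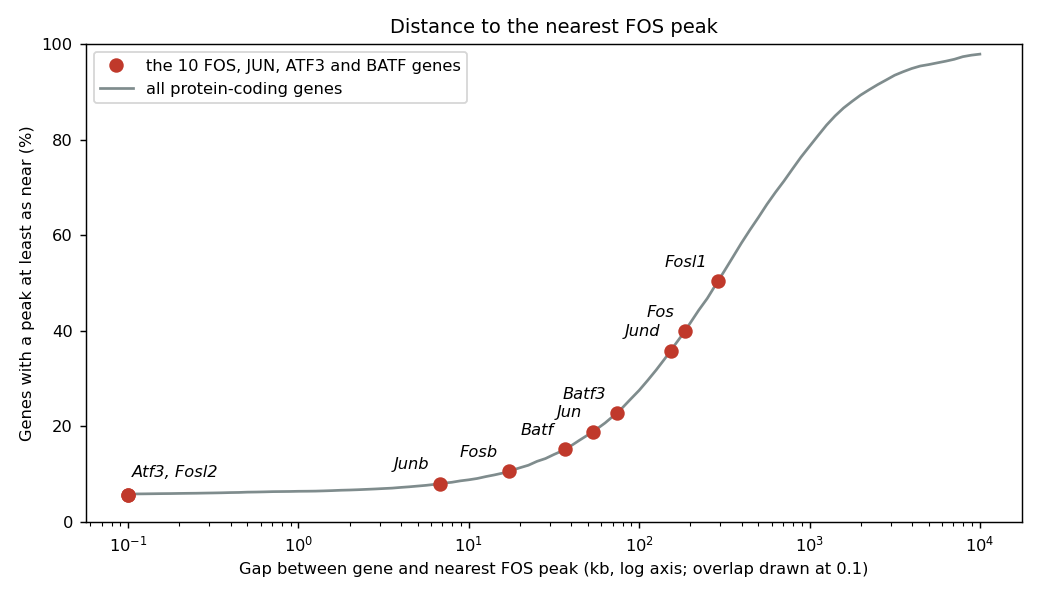
Percentage of protein-coding genes with a FOS peak at least as near (vertical axis) against the gap between gene and nearest peak in kb on a logarithmic horizontal axis, with overlaps drawn at 0.1. The red points are the 10 genes and the grey line is all 21887 protein-coding genes. Junb stands where 8.03% of all genes have a peak as near, and Fosl1 where 50.3% do.

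The count of genes near a peak depended on how a peak was tied to a gene. With any peak within 10 kb counted, whichever gene it was assigned to, 3 of the 10 genes had 1 (Fosl2, Junb and Atf3), beside 8.85% of all protein-coding genes. Within 50 kb, 5 of 10 had a peak (Fosb, Fosl2, Junb, Atf3 and Batf), beside 18.2%. Within 100 kb, 7 of 10 had a peak, beside 27.6%, and Fos, Fosl1 and Jund were the ones without. The members of the set had a median of 4.5 other protein-coding genes within 100 kb, and all protein-coding genes had 4.

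The other bZIP genes include several whose products pair with FOS or JUN proteins. Of 31 such genes, 13 had a peak by the rule of nearest or host gene (41.9%), beside 8.69% of all protein-coding genes. These 13 genes had 16 peaks in all. They were Maf, Maff, Mafk, Nfe2l2, Bach1, Bach2, Atf1, Creb1, Ddit3, Cebpa, Cebpb, Xbp1 and Nfil3. Not all of these peaks were close or of high score. The best peak of Maf by score was centred 625 kb past its start, and that of Creb1 scored 24. The gap between Maf and its nearest peak, whichever gene that was assigned to, was 57.7 kb. A peak centred within 10 kb of a start was found for 8 of the 31, beside 3.85% of all protein-coding genes. The highest score was 266 at the promoter of Ddit3, the gene of the stress factor CHOP, which was above every peak of the 10 AP-1 genes. Mafk, a small MAF protein gene, had 195 in intron 1 of 2. Xbp1, a factor of the unfolded protein response, had 155 in intron 1 of 4. Nfe2l2, the gene of the antioxidant factor NRF2, had 147 in intron 1 of 4. The best peak was of the promoter class at 4 of the 31 genes, namely Maff, Atf1, Ddit3 and Cebpb. The share of all genes with such a best peak was not computed, so this count has no background. Jdp2 and Batf2, the closest relatives of the set in this list, had no assigned peak.

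The last list held genes of the kinases and factors that switch on AP-1. Of its 24 genes, 4 had a peak (16.7%), beside 8.69% of all protein-coding genes under the same rule. Each of the 4 had a single peak, and none of these was of the promoter class. Map2k3, a kinase that activates p38, had a score of 103 in intron 1 of 11. Rps6ka2, which encodes an RSK kinase, had 91 in intron 1 of 20. Prkcd, a protein kinase C gene, had 88 at 9.60 kb upstream, and Mapk10, the gene of JNK3, had 39 in intron 5 of 13. Srf and the 3 ELK genes, whose products bind the serum response element of Fos, had no assigned peak, and neither did the JNK genes Mapk8 and Mapk9. A peak assigned to another gene lay 43.7 kb from Elk4 and 35.0 kb from Mapk9. The gap was 299 kb at Srf and longer at Elk1, Elk3 and Mapk8. The difference between these lists was not tested.

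**Figure D4:**
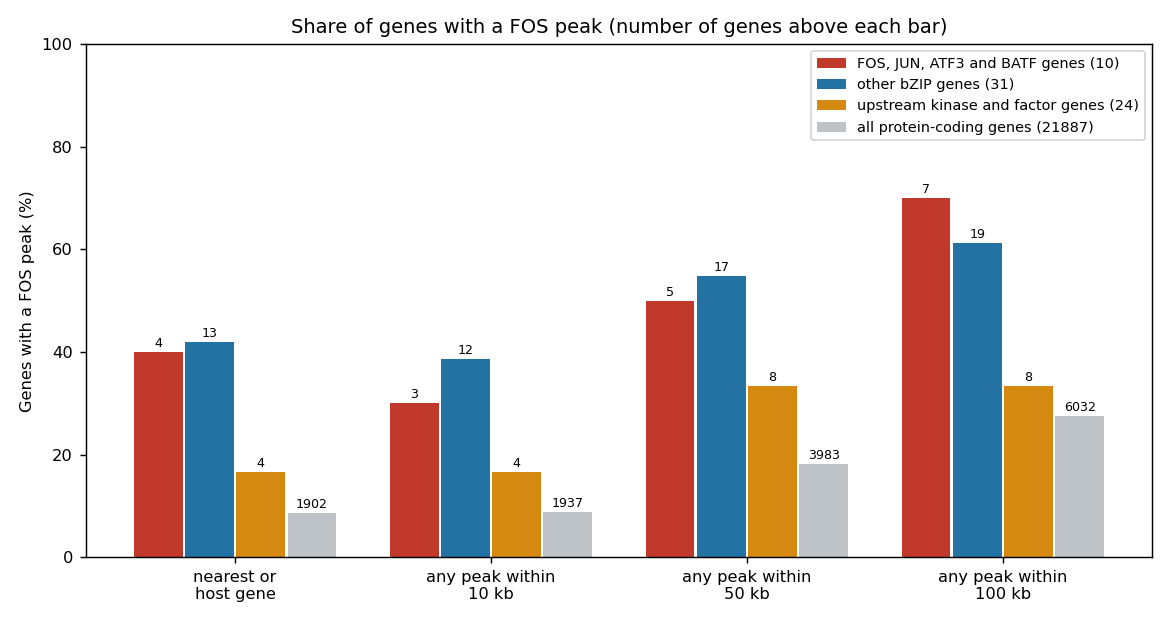
Percentage of genes with a FOS peak (vertical axis) in the 10 FOS, JUN, ATF3 and BATF genes, 31 other bZIP genes, 24 upstream kinase and factor genes and all 21887 protein-coding genes, under 4 ways to tie a peak to a gene. Numbers above the bars count genes. The AP-1 genes run from 3 of 10 within 10 kb to 7 of 10 within 100 kb.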

How the data were processed

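The data are 1 table of FOS ChIP-seq peaks from a single library. Per the file headers, the table came from HOMER's annotatePeaks, run on narrowPeak calls. The submitters' processing notes name MACS2 2.2.7.1, BWA, deepTools 3.5.1, Trim Galore and the mm10 build, without their roles. The control library, threshold and filters are not stated there. The deposited score of each peak was used to describe and rank peaks within this list. Its scale is not stated.

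Gene names were matched to RefSeq genes of GRCm38.p6 by accession, symbol or older symbol. All 1965 nearest names and 1311 of 1314 host names matched. The authors' distance to the start agreed within 1 bp with this table for 7 of the 8 member peaks. For the other, at Fosb, it differed by 73 bp. Over the whole list, 48.5% of the authors' distances agreed within 10 bp with the distance to an end of the gene's span here. Gaps were measured between gene span and peak edge. Motifs were searched in RefSeq promoter windows, after a check on planted letters. No test was made, because peaks and genes of 1 library are not replicates. The genes and both other lists were chosen with earlier results of these data known. Named are all 10 genes and, in the other lists, the genes with a peak. The 4 best by score carry values, and so do Maf and Creb1, for the most distant and the lowest best peak of the other bZIP genes. The listed genes without a peak that are named were picked with their values in view. Python 3.11.15, numpy 2.4.6, scipy 1.17.1, pandas 2.3.3 and matplotlib 3.10.9 were used.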

Additional observations from a re-analysis of the deposited data

How the results depend on the processing

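A value was held to be unchanged if a count or median stayed within 1.5 times the reported one, or a percentage within its exact 95% binomial interval. Of 41 recomputed values 20 were unchanged. Of the 10 genes, 4 had a peak as reported, against 2 at scores of 99 or more or with peak centres within 10 kb of a start, and 7 within 100 kb. Their 8 peaks became 5 at or above the median score, 2 at scores of 99 or more, 3 with centres within 10 kb, and 4 with any peak within 10 kb of the gene, an alternative added after the data were seen. All protein-coding genes, 8.69% as reported, gave 7.58% by nearest gene alone, 18.2% within 50 kb, 27.6% within 100 kb, 4.75% at or above the median score, 2.55% at scores of 99 or more, 3.85% with centres within 10 kb, and 4.45% of all annotated genes. The other bZIP genes numbered 6 at scores of 99 or more and 8 with centres within 10 kb, against 13 as reported. The kinase and factor genes, 4 as reported, were 8 within 50 kb and 8 within 100 kb, and 1 at scores of 99 or more. Member peaks near the start numbered 1 by the promoter class, 2 within 1 kb and 3 within 5 kb. The median member score was unchanged under its 3 alternatives. No paired analysis was possible because the series has 1 FOS library. Depth is unknown, so a gene without a listed peak is not shown to lack FOS.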
